A study of Mus musculus with 12 samples.

Results

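The 39 genes described here are the transcription factor gene Myc and 38 genes for making ribosomes, chosen by name from the 55487 genes of the deposited tables. All 39 were found by symbol, and all 39 passed the low-count filter in every fit. They fall into 6 genes of ribosomal RNA (rRNA) transcription, 4 genes of box C/D small nucleolar ribonucleoproteins (snoRNPs) and 4 core genes of box H/ACA snoRNPs. The others are 8 small subunit assembly factors, 16 large subunit assembly factors and Myc itself. The libraries came from mouse bone marrow cells in 4 groups of 3. MA9 cells carried a retroviral MLL::AF9 fusion, a driver of acute myeloid leukaemia, and then received either a retrovirus expressing sPrdm16 (MA9 sPrdm16) or a mock retrovirus (MA9 mock). Normal bone marrow cells (WT) received the same pair of viruses (WT sPrdm16 and WT mock). Prdm16 is a zinc-finger transcriptional regulator of blood stem cells and brown fat, and sPrdm16 is the form named in the labels. The stated question was how sPrdm16 expression makes leukaemia cells resistant to chemotherapy. Both the fusion and sPrdm16 were expressed from viral vectors, and the growth medium, with 5 ng/ml mouse IL-3, is given for the MA9 cells alone. The labels do not say whether the replicates came from separate transductions, cultures or mice, and the p-values cover no more than the variation among the deposited libraries, which could be technical.

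Myc is a basic helix-loop-helix transcription factor that pairs with Max, binds E-box DNA and drives cell growth, in large part by raising the output of ribosomes. In the nucleolus RNA polymerase I transcribes rRNA precursors, box C/D and box H/ACA snoRNPs methylate and pseudouridylate them, and assembly factors cleave, fold and export the maturing subunits. In leukaemias driven by MLL fusions, Myc is known as a central growth regulator downstream of the fusion.

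Totals were 22340055 to 37390897 counts per library in MA9 sPrdm16, 21057112 to 23095371 in MA9 mock, 17217123 to 18823650 in WT sPrdm16 and 18322467 to 18588245 in WT mock. The classes of RNA behind these totals differed between the MA9 groups. Nuclear protein-coding genes held 75.3% to 75.7% of the counts in MA9 sPrdm16 and 18.3% to 34.2% in MA9 mock, while ribosomal and other structural RNA held 18.6% to 18.8% in MA9 sPrdm16 and 59.1% to 74.2% in MA9 mock. In WT, nuclear protein-coding genes held 93.2% to 94.5% with sPrdm16 and 91.5% to 93.6% with mock. Structural RNA held 1.41% to 2.04% in WT sPrdm16 and 1.90% to 2.46% in WT mock. Scaling therefore matters in MA9. Fold changes are on the TMM scale of edgeR, in CPM (counts scaled to a common library size), on which the median gene stood near 0. With total counts as the scale the median over all genes moved up by 1.41 (log2) in MA9 and by 0.17 in WT. Prdm16 followed the labels, at 134 to 143 CPM in MA9 sPrdm16 and with no count in MA9 mock, where 3 counts would be at most 0.365 CPM. It stood at 38.5 to 47.2 CPM in WT sPrdm16 and 0 to 1.26 CPM in WT mock.

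Of the 39 members, 33 had a start-site window in the RefSeq promoter table (build GRCm38.p6, with the coordinates of mm10), reaching from 250 bases before to 50 bases after the start. The canonical E-box CACGTG, a palindrome that reads the same on both strands, was found in the windows of 8 of these 33 members (24.2%). It was found in 8.09% of the 27025 genes of the table and in 11.8% of the 9966 table genes that were tested in the counts. Because these 8 windows hold the letters that Myc and Max are known to bind, the bases around each match are shown, 5′ to 3′ on the gene's strand, with the E-box in capitals.
Grwd1, chr7:45830740-45830767, minus strand: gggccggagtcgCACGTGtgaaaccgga
Ltv1, chr10:13193092-13193121, minus strand: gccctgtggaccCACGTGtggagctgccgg
Mybbp1a, chr11:72441355-72441376, plus strand: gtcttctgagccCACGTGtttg
Nle1, chr11:82908355-82908384, minus strand: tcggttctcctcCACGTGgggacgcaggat
Nop2, chr6:125131811-125131840, plus strand: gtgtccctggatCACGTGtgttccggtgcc
Pes1, chr11:3963965-3963994, plus strand: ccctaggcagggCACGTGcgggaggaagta
Tsr1, chr11:74898092-74898121, plus strand: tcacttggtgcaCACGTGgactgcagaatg
Wdr43, chr17:71616220-71616249, plus strand: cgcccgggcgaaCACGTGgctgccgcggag

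In 7 of the 8 the E-box began 2 to 40 bases downstream of the annotated start, and in Nop2 it began 60 bases upstream. The variant CACGCG, searched on both strands, was found in 10 of the 33 members (30.3%). It was found in 10.5% of the table's genes and 19.6% of the tested ones. Mybbp1a and Pes1 held both motifs. These are matches of letters and no measurement of binding.

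In WT cells the calls were nearly all rises. Of the 39 members 38 rose with sPrdm16 and none fell, against 34.1% called among the 14063 genes tested, 17.5% that rose and 16.6% that fell. With total counts all 39 rose, and 71.0% of the calls over all genes were rises, against 51.3% on the TMM scale. The median log2 fold change of the members was 0.84, against 0.01 over all genes tested. At an unadjusted p under 0.05 no member fell either, and none was called lower by DESeq2 or limma-voom. The WT sPrdm16 libraries all lay above the WT mock libraries in 38 members and overlapped them in Heatr1, while 23.8% of all genes tested lay above in this way. The exception, Heatr1, a nucleolar scaffold of the early small subunit precursor, stood at 62.0 ± 1.27 CPM in WT sPrdm16 and 50.2 ± 13.3 CPM in WT mock (SD, n = 3 each), and did not pass (log2 fold change 0.30, SE 0.16, edgeR adjusted p = 0.16). WT mock replicate 2 of Heatr1, at 63.8 CPM, lay above every WT sPrdm16 library.

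In MA9 cells most of these genes fell or did not pass the test. On the TMM scale 18 of the 39 members fell and 2 rose, against 34.6% called among the 14394 genes tested, 17.5% that fell and 17.1% that rose. With total counts 37 members rose and none fell, and 95.0% of the calls over all genes were rises, against 49.3% on the TMM scale. The median of the members was -0.27, against 0.03 over all genes tested. Relative to that median of all genes, the members' median lay 0.29 lower on the TMM scale and 0.27 lower with total counts (1.16 against 1.43). A change of scale moves all genes nearly alike, so these gaps are not independent of each other. The MA9 sPrdm16 libraries all lay below the MA9 mock libraries in 24 members, all above in 3 and overlapped in 12, while 23.4% of all genes tested lay below and 26.7% above. Restricted to nuclear protein-coding genes, with scaling recomputed over them, 21 members fell and 2 rose, while 2143 of the 11331 genes tested in that fit fell and 1999 rose. In 1 fit over all 12 libraries, also on the TMM scale, 8 members fell and 2 rose and 11 of the 20 calls were lost, while 1906 of 16194 genes fell and 2805 rose. The calls lost in that fit were Ddx18, Ddx21, Gnl3, Grwd1, Heatr1, Mybbp1a, Nop58, Pes1, Rrp9, Tsr1 and Wdr43. With no low-count filter the calls of Grwd1, Heatr1, Nop58 and Tsr1 were lost. Leaving out MA9 sPrdm16 replicate 1 or replicate 2 left 10 members that fell, and leaving out replicate 3 left 12.

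**Figure D1:**
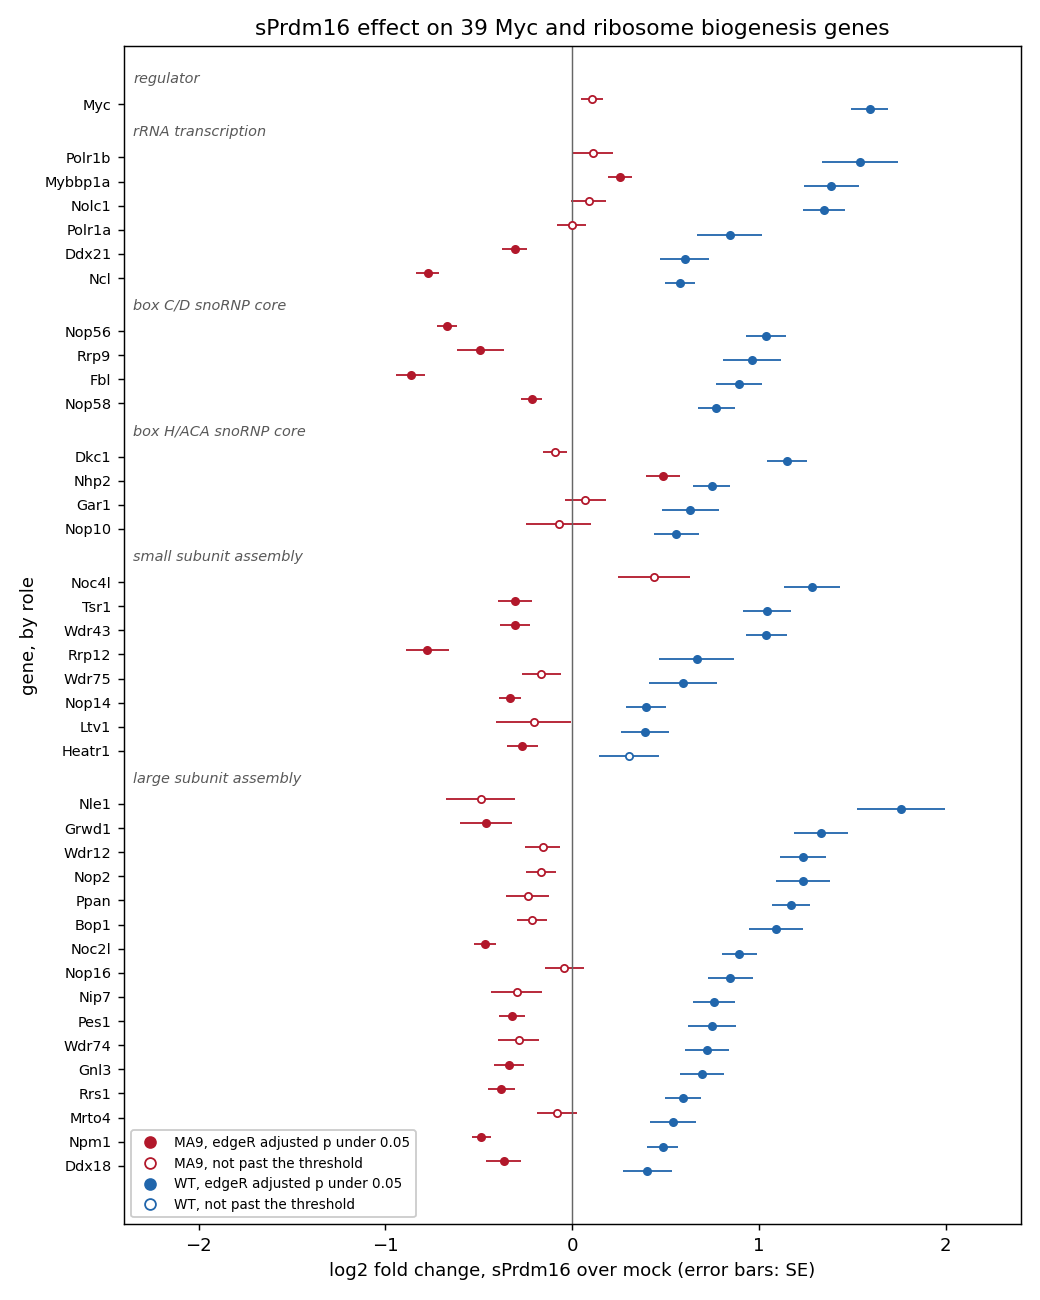
Log2 fold change of sPrdm16 over mock (x axis) for the 39 genes by role (y axis), in MA9 cells (red) and WT cells (blue), with SE bars; filled points passed the edgeR threshold of 0.05 and open points did not. The WT points lie right of 0, 38 of them filled, while 32 of the MA9 points lie left of 0 on this TMM scale (with total counts those 32 lie right of 0).

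The difference between the effects was tested directly, as an interaction over all 12 libraries. It was negative in all 39 members and past the threshold in 34, while none was past it in the other direction; among the 16194 genes tested 28.0% passed, 12% lower and 16.0% higher in this sense (with total counts 96.0% of the calls over all genes were higher, against 57.1% on the TMM scale). The median difference, MA9 minus WT, was -0.99 among the members and 0.08 over all genes tested. With total counts the members' median was 0.17, against 1.21 over all genes, and 2 members passed the threshold, both upwards. Genotype and deposited table coincide, and only a difference shared by both groups of a table cancels in this test. The shares of RNA classes differed far more between the MA9 groups than between the WT groups. Their part in the interaction was not tested. The 5 members that did not pass on the TMM scale were Gar1, Nop10, Nhp2, Heatr1 and Ltv1. By the calls of each genotype, 17 members fell in MA9 and rose in WT, and 16 rose in WT with no call in MA9 and a lower effect there. Mybbp1a rose in both with a lower effect in MA9, Nhp2 rose in both, Gar1, Nop10 and Ltv1 rose in WT with no other call, and Heatr1 fell in MA9 alone.

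Myc (ENSMUSG00000022346.16, chr15:61985391-61990374 in mm10) had the smallest p of the 39 in WT. It stood at 247, 246 and 237 CPM in the WT sPrdm16 libraries, against 77.0, 91.2 and 74.2 CPM in the WT mock libraries. Every sPrdm16 library lay far above every mock library (log2 fold change 1.59, SE 0.10, edgeR adjusted p = 2.0e-08). In MA9 it stood at 149, 151 and 149 CPM with sPrdm16 and 148, 134 and 134 CPM with mock. These groups did not overlap but lay close together, and the difference did not pass the threshold (log2 fold change 0.11, SE 0.06, edgeR adjusted p = 0.21). It passed, as a rise, when MA9 mock replicate 1 was left out, with no low-count filter, and with total counts. The difference between the effects was -1.40 (SE 0.13, edgeR adjusted p = 2.4e-07). On the scale of all 12 libraries, Myc averaged 197 ± 4.30 CPM in WT sPrdm16, 191 ± 4.06 in MA9 sPrdm16, 167 ± 10.8 in MA9 mock and 65.0 ± 7.49 in WT mock (SD, n = 3 each). Only the top pair of groups overlapped, and genotype and deposited table coincide, so the levels between genotypes carry no test.

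**Figure D2:**
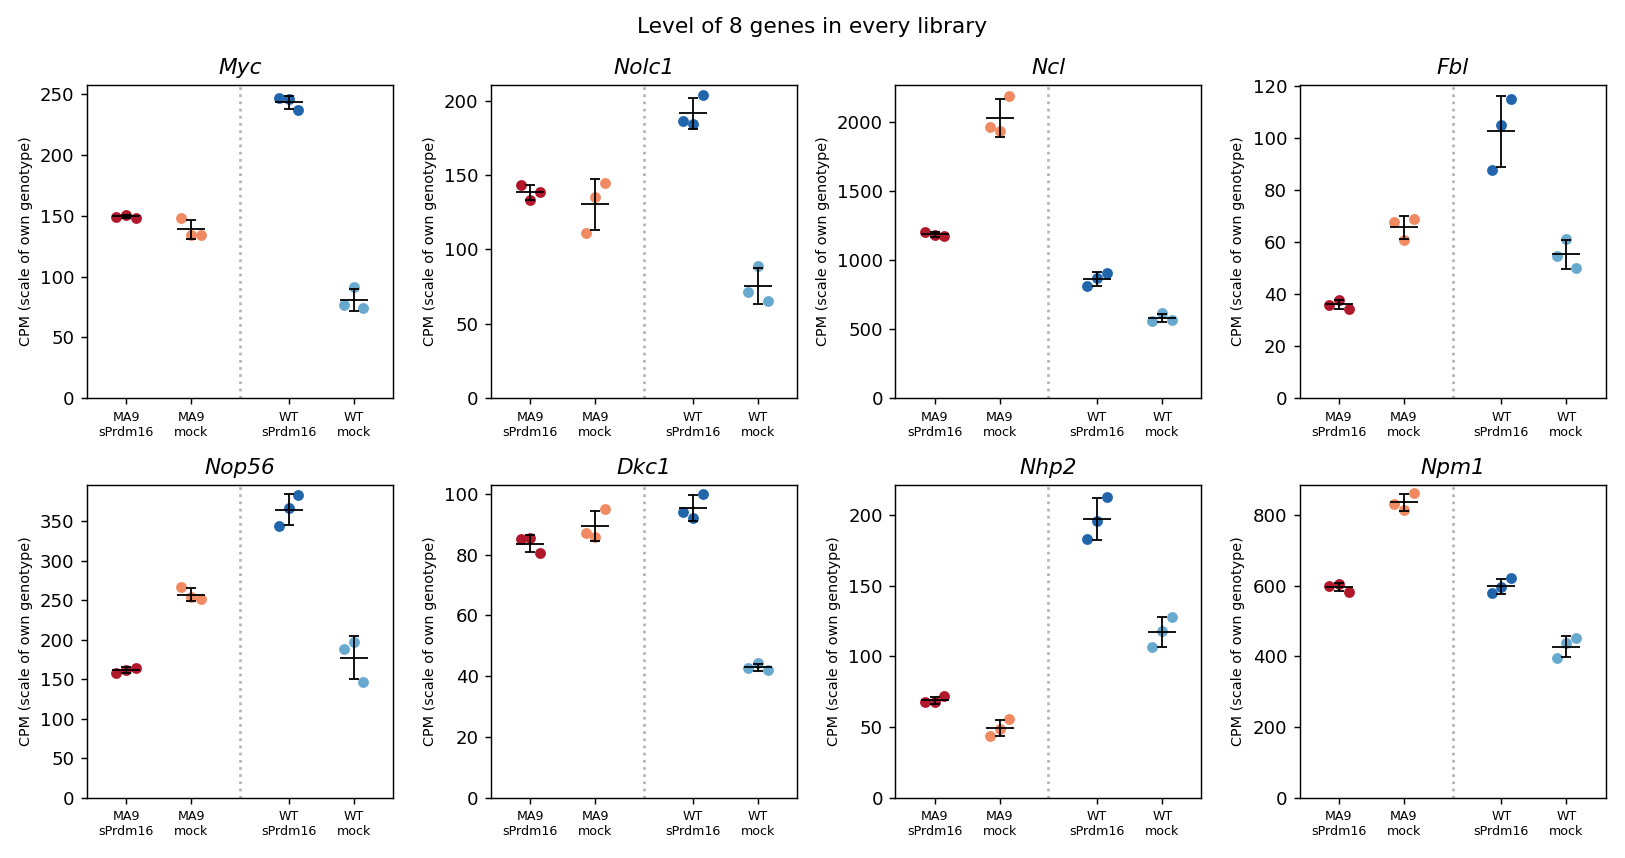
Level of 8 members in each library (points, y axis in CPM from 0, scaled within a genotype) for sPrdm16 and mock in MA9 (left of the dotted line) and WT (right), with the mean and SD of 3 libraries. In WT each gene is higher with sPrdm16 in every library, while in MA9 Ncl, Fbl, Nop56 and Npm1 are lower and Nhp2 is higher (on this scale; with total counts the 4 lower ones are higher).

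Among the 6 genes of rRNA transcription all 6 rose in WT (median 1.10), and in MA9 2 fell and 1 rose, with a median of 0.04 on the TMM scale (all 6 rose with total counts). Ncl (ENSMUSG00000026234.12, chr1:86344719-86359400) encodes nucleolin, which binds rRNA genes and nascent rRNA precursors. In MA9 it stood at 1204, 1180.1 and 1171 CPM with sPrdm16, against 1963, 1932 and 2186 CPM with mock. All sPrdm16 libraries were far below all mock libraries (log2 fold change -0.77, SE 0.06, edgeR adjusted p = 2.8e-05), although with total counts the log2 fold change was 0.66. In WT the order was the other way, with 809.8, 868 and 906 CPM in sPrdm16 libraries and 556, 613 and 564 CPM in mock libraries (log2 fold change 0.58, SE 0.08, edgeR adjusted p = 8.6e-05). The difference between these effects was -1.27 (SE 0.11, edgeR adjusted p = 2.9e-07).

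Nolc1, a nucleolar phosphoprotein that chaperones snoRNPs and associates with RNA polymerase I, had 187, 184 and 204 CPM in WT sPrdm16 and 71.4, 88.8 and 65.6 CPM in WT mock. The sPrdm16 libraries lay far above the mock libraries, with the smallest p in WT after that of Myc (log2 fold change 1.35, SE 0.11, edgeR adjusted p = 5.7e-07). In MA9 its libraries overlapped, at 138 ± 5.21 CPM with sPrdm16 and 130.5 ± 17.2 CPM with mock (SD, n = 3 each; edgeR adjusted p = 0.5). Polr1a and Polr1b, which form the catalytic core of RNA polymerase I, rose in WT by 0.84 and 1.54 (log2). In MA9 their groups overlapped, with Polr1a at 62.9 ± 2.39 CPM with sPrdm16 and 63.0 ± 4.94 CPM with mock and Polr1b at 22.0 ± 1.13 CPM with sPrdm16 and 20.2 ± 1.99 CPM with mock (SD, n = 3 each). The helicase gene Ddx21, which acts at rRNA genes and on snoRNAs, had 176, 172 and 171 CPM in MA9 sPrdm16 and 198, 213 and 232 CPM in MA9 mock, without overlap (log2 fold change -0.31, SE 0.07, edgeR adjusted p = 0.0066). It rose in WT by 0.60 (SE 0.13). Mybbp1a, a nucleolar regulator of rRNA synthesis named after its values were seen, rose in both genotypes. It averaged 195 ± 4.50 CPM in MA9 sPrdm16 and 163 ± 11.0 CPM in MA9 mock (log2 fold change 0.26, SE 0.06, edgeR adjusted p = 0.013), but the MA9 call was lost without MA9 mock replicate 2, without MA9 sPrdm16 replicate 1 and without replicate 3. In WT it averaged 246 ± 7.61 CPM with sPrdm16 and 93.9 ± 24.6 CPM with mock (SD, n = 3 each; log2 fold change 1.39, SE 0.15, edgeR adjusted p = 6.2e-06).

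The 4 box C/D snoRNP genes are the core genes Fbl, Nop56 and Nop58, and Rrp9, which is not a shared core protein. All 4 fell in MA9 on the TMM scale (median -0.58, all 4 positive with total counts). All 4 rose in WT (median 0.93). With total counts the further core gene Snu13, read with another list, stood at 1.37 in MA9 and 0.43 in WT (log2). The medians over all genes were then 1.43 and 0.18. On that scale the 4 genes stood at 0.56 to 1.20 in MA9 and at 0.94 to 1.21 in WT. Snu13 thus lay nearer to the medians of all genes than any of the 4 did, in both genotypes. Fbl (ENSMUSG00000046865.7, chr7:28169710-28179269) encodes fibrillarin, the ribose methyltransferase of box C/D snoRNPs. It had 35.9, 37.7 and 34.4 CPM in MA9 sPrdm16 and 67.5, 60.7 and 68.8 CPM in MA9 mock. Every sPrdm16 library stood well below every mock library (log2 fold change -0.87, SE 0.08, edgeR adjusted p = 6.0e-05), the lowest log2 fold change of the 39 in MA9. In WT it had 87.9, 105 and 115 CPM with sPrdm16 and 54.7, 61.2 and 50.1 CPM with mock, with no overlap (log2 fold change 0.89, SE 0.12, edgeR adjusted p = 6.5e-05). Nop56, which scaffolds the particle together with Nop58, had 157, 162 and 165 CPM in MA9 sPrdm16 and 266, 253 and 251 CPM in MA9 mock (log2 fold change -0.67, SE 0.05, edgeR adjusted p = 3.3e-05). Its WT libraries held 344, 367 and 383 CPM with sPrdm16 and 189, 197 and 147 CPM with mock (log2 fold change 1.04, SE 0.11, edgeR adjusted p = 4.4e-06). Nop56 had the smallest interaction p of the 39, with a difference of -1.63 (SE 0.14, edgeR adjusted p = 1.2e-07). Nop58 moved less, with 131 ± 2.94 CPM in MA9 sPrdm16 and 153 ± 4.87 CPM in MA9 mock (log2 fold change -0.22, SE 0.06, edgeR adjusted p = 0.014), a call that ended without any 1 of the MA9 sPrdm16 libraries. Rrp9, which belongs to the snoRNP that guides the first cleavages of the small subunit precursor, averaged 17.0 ± 1.07 CPM in MA9 sPrdm16 and 24.0 ± 3.72 CPM in MA9 mock (SD, n = 3 each). It fell (log2 fold change -0.49, SE 0.13, edgeR adjusted p = 0.015), but the call was lost without MA9 sPrdm16 replicate 1 or replicate 2. The call of Rrp9 was also lost after thinning to an equal nuclear protein-coding total and in 1 fit over all 12 libraries.

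The 4 box H/ACA core genes behaved otherwise in MA9, where none fell and 1 rose on the TMM scale (log2 fold changes -0.09 to 0.49; all 4 rose with total counts), while in WT all 4 rose (median 0.69). These proteins carry out pseudouridylation and are also part of telomerase. Dkc1, the pseudouridine synthase dyskerin, had 93.9, 92.0 and 100.1 CPM in WT sPrdm16 and 42.8, 44.2 and 42.0 CPM in WT mock (log2 fold change 1.15, SE 0.11, edgeR adjusted p = 1.3e-06), every sPrdm16 library far above every mock library. In MA9 it stood just lower with sPrdm16, at 83.7 ± 2.78 CPM, than with mock, at 89.4 ± 4.90 CPM (SD, n = 3 each; log2 fold change -0.09, SE 0.07, edgeR adjusted p = 0.31). The difference between the effects was -1.16 (SE 0.12, edgeR adjusted p = 1.4e-06). Nhp2, an RNA-binding partner of dyskerin, was the one of the 4 that rose in MA9. It had 67.6, 67.6 and 71.6 CPM in MA9 sPrdm16 and 43.9, 48.8 and 55.6 CPM in MA9 mock, without overlap (log2 fold change 0.49, SE 0.09, edgeR adjusted p = 0.0028). In WT it had 183, 195 and 213 CPM with sPrdm16 and 107, 118 and 128 CPM with mock (log2 fold change 0.75, SE 0.10, edgeR adjusted p = 4.2e-05), and the effects of the genotypes differed by -0.18 (SE 0.14, edgeR adjusted p = 0.38). The MA9 call of Nhp2 was the one among the 20 that kept its direction and its call under all 16 alternatives, total counts included. With total counts 95.0% of the MA9 calls over all genes were rises, so that scale is little of a test for a gene that rose. Gar1 and Nop10, the other partners, overlapped between the MA9 groups and rose in WT by 0.63 and 0.56 (log2).

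Of the 8 small subunit assembly factors 5 fell and none rose in MA9 (median -0.29 on the TMM scale; all 8 were positive with total counts), and 7 rose in WT (median 0.63). Rrp12, which helps export the small subunit precursor, had 20.1, 20.1 and 22.7 CPM in MA9 sPrdm16 and 37.2, 30.5 and 40.3 CPM in MA9 mock, with no overlap (log2 fold change -0.78, SE 0.12, edgeR adjusted p = 9.0e-04). In WT it averaged 27.6 ± 2.59 CPM with sPrdm16 and 17.4 ± 4.76 CPM with mock (SD, n = 3 each; log2 fold change 0.67, SE 0.20, edgeR adjusted p = 0.018), and that call was lost without WT mock replicate 2, WT sPrdm16 replicate 1 or WT sPrdm16 replicate 2. Nop14, a component of the processome that makes the small subunit, had 61.4, 61.9 and 60.3 CPM in MA9 sPrdm16 and 76.2, 77.2 and 77.8 CPM in MA9 mock. The libraries of each group lay within a few CPM of each other and apart from the other group (log2 fold change -0.33, SE 0.06, edgeR adjusted p = 0.0023). In WT Nop14 had 71.6, 77.3 and 71.5 CPM with sPrdm16 and 57.3, 55.2 and 55.0 CPM with mock (log2 fold change 0.40, SE 0.11, edgeR adjusted p = 0.01), a call lost without WT sPrdm16 replicate 2. The other calls in MA9 were Wdr43 at -0.31, Tsr1 at -0.31 and Heatr1 at -0.27 (log2), and each of these 3 was lost without any 1 of the MA9 sPrdm16 libraries. Noc4l had the one positive MA9 value of the 8 on the TMM scale, 0.44 (SE 0.19), and did not pass, although it passed as a rise with no filter, in 1 fit over all 12 libraries, with total counts and without MA9 mock replicate 1.

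Of the 16 large subunit assembly factors 7 fell and none rose in MA9 (median -0.31; all 16 had negative values on the TMM scale and positive ones with total counts), and all 16 rose in WT (median 0.80). Npm1 (ENSMUSG00000057113.13, chr11:33152287-33163206) encodes nucleophosmin, an abundant nucleolar chaperone that is often mutated in human acute myeloid leukaemia. It had 599.9, 604 and 583 CPM in MA9 sPrdm16 and 829.7, 814 and 862 CPM in MA9 mock. All sPrdm16 libraries were below all mock libraries (log2 fold change -0.49, SE 0.05, edgeR adjusted p = 1.2e-04). In WT it had 579, 595 and 621 CPM with sPrdm16 and 394, 436 and 451 CPM with mock, the reverse order (log2 fold change 0.49, SE 0.08, edgeR adjusted p = 3.9e-04). Noc2l, which moves with early large subunit precursors through the nucleus, had 147, 139.6 and 149.9 CPM in MA9 sPrdm16 and 204, 208 and 191 CPM in MA9 mock (log2 fold change -0.47, SE 0.06, edgeR adjusted p = 3.7e-04). In WT it averaged 203 ± 10.9 CPM with sPrdm16 and 109 ± 8.62 CPM with mock (SD, n = 3 each; log2 fold change 0.89, SE 0.09, edgeR adjusted p = 4.9e-06). Its effects differed by -1.28 (SE 0.12, edgeR adjusted p = 3.8e-07).

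Rrs1, which brings a small ribosomal RNA particle into the large subunit precursor, had 58.6, 57.4 and 60.2 CPM in MA9 sPrdm16 and 82.2, 74.7 and 72.0 CPM in MA9 mock (log2 fold change -0.38, SE 0.07, edgeR adjusted p = 0.003), and in WT it rose by 0.59 (SE 0.10). Gnl3, the nucleolar GTPase nucleostemin known from stem cells, had 82.4, 87.9 and 86.3 CPM in MA9 sPrdm16 and 115, 114 and 95.2 CPM in MA9 mock (log2 fold change -0.34, SE 0.08, edgeR adjusted p = 0.0097), and in WT it rose by 0.69 (SE 0.12). The MA9 call of Gnl3 was lost without MA9 sPrdm16 replicate 1. Pes1, Bop1 and Wdr12 form 1 complex that processes large subunit rRNA. In MA9 Pes1 fell, at 58.1 ± 2.73 CPM with sPrdm16 and 72.8 ± 3.27 CPM with mock (log2 fold change -0.32, SE 0.07, edgeR adjusted p = 0.0062), a call lost without MA9 sPrdm16 replicate 2. Its partners had MA9 values of -0.22 (Bop1, edgeR adjusted p = 0.065) and -0.16 (Wdr12, edgeR adjusted p = 0.23), which did not pass. In WT all 3 rose, Pes1 by 0.75, Bop1 by 1.09 and Wdr12 by 1.24 (log2), the last with 76.5, 73.0 and 87.8 CPM in sPrdm16 libraries and 30.7, 36.3 and 33.7 CPM in mock libraries (edgeR adjusted p = 3.5e-06). Ppan, whose yeast counterpart acts in early large subunit assembly, had 122, 119.6 and 124 CPM in WT sPrdm16 and 57.9, 53.9 and 50.6 CPM in WT mock (log2 fold change 1.17, SE 0.10, edgeR adjusted p = 6.2e-07), while in MA9 its libraries overlapped (-0.24, edgeR adjusted p = 0.14).

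Nle1, known in yeast for docking the machine that strips factors from the large subunit precursor and named after its values were seen, had the widest gap between the genotypes among the 39. It averaged 18.1 ± 1.42 CPM in WT sPrdm16 and 5.33 ± 1.26 CPM in WT mock (SD, n = 3 each), and rose (log2 fold change 1.76, SE 0.24, edgeR adjusted p = 5.1e-05). In MA9 it averaged 5.82 ± 0.491 CPM with sPrdm16 and 8.15 ± 1.51 CPM with mock (SD, n = 3 each) and missed the threshold (log2 fold change -0.49, SE 0.18, edgeR adjusted p = 0.067), although it passed as a fall with DESeq2, with limma-voom, with a filter of 5 CPM, with protein-coding genes alone and without MA9 mock replicate 1, and as a rise with total counts. The difference between its effects was -2.17 (SE 0.31, edgeR adjusted p = 5.0e-05). The remaining large subunit factors that fell in MA9 were Ddx18 and Grwd1, at -0.37 and -0.46 (log2), and both calls were lost without any 1 of the MA9 sPrdm16 libraries. Nop2, an rRNA methyltransferase, Nip7, Nop16, Mrto4 and Wdr74 had MA9 values between -0.30 and -0.04 without a call, and in WT they rose by 0.54 to 1.23. Of the 8 members with an E-box in the window, 4 fell and 1 rose in MA9 on the TMM scale. Of all 39 members 18 fell and 2 rose there. All 8 rose in WT, where 38 of all 39 members did.

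Summed over the 39 genes, the share of nuclear protein-coding counts was 0.910% ± 0.00343 in MA9 sPrdm16 and 1.23% ± 0.0251 in MA9 mock, and 0.593% ± 0.0139 in WT sPrdm16 and 0.303% ± 0.0116 in WT mock (SD, n = 3 each). The groups did not overlap in this share. Ncl alone made up 0.262% in MA9 sPrdm16, 0.447% in MA9 mock, 0.0974% in WT sPrdm16 and 0.0587% in WT mock. The 37 genes other than Ncl and Npm1 held 0.517% ± 0.00499 in MA9 sPrdm16 and 0.601% ± 0.0144 in MA9 mock, and 0.428% ± 0.00656 in WT sPrdm16 and 0.201% ± 0.0106 in WT mock (SD, n = 3 each). The MA9 groups thus lay apart without the most abundant pair as well, by a smaller margin. Per kilobase of listed gene length on the scale of all 12 libraries, Npm1 had the highest level of the 39 in every group, 467 CPM per kb in MA9 sPrdm16, 613 in MA9 mock, 297 in WT sPrdm16 and 210.4 in WT mock. Ncl came next in both MA9 groups and Nhp2 in both WT groups.

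**Figure D3:**
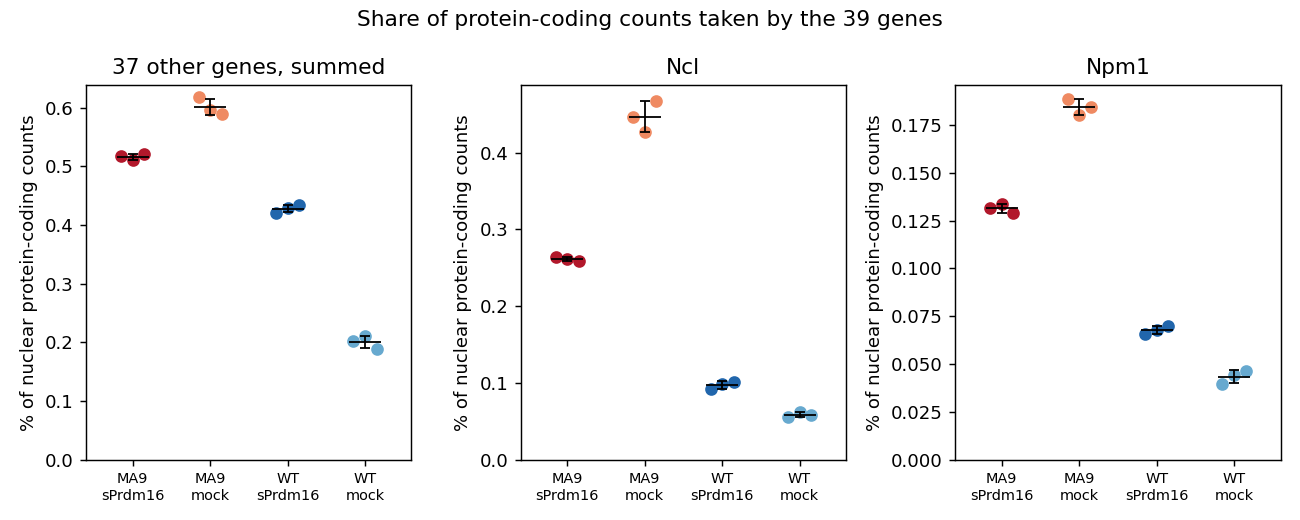
Share of nuclear protein-coding counts (y axes in percent, from 0) of 37 members summed, of Ncl and of Npm1, for each library (points) with the mean and SD of 3 libraries per group. The share is lower with sPrdm16 than with mock in MA9 and higher in WT in each panel, with no overlap within a genotype.

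Beside WT mock, MA9 mock held more of most members. On the 12-library scale the MA9 mock libraries all lay above the WT mock libraries in 30 of the 39 members and all below in 4 (Nhp2, Nop10, Nip7 and Wdr74), against 34.4% higher and 37.9% lower of the 16194 genes tested. This depended on the scale, since 3 were higher and 16 lower with total counts, against 11.9% higher and 56.8% lower of all genes tested. With the protein-coding total 34 were higher and 2 lower, against 44.3% and 28.8%. Between the sPrdm16 groups 17 members were higher in MA9 sPrdm16 than in WT sPrdm16 and 16 lower, against 41.1% higher and 41.4% lower of all genes tested. In 15 of the 39 members, among them Ncl, Npm1, Dkc1 and Noc2l, the group means were highest in MA9 mock, followed by MA9 sPrdm16, WT sPrdm16 and WT mock. Genotype and table coincide, so these levels are a description with no test.

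Genes of the same pathway outside the 39 were read from lists of their own. Over all genes tested, on the TMM scale, 17.5% fell and 17.1% rose in MA9, and 16.6% fell and 17.5% rose in WT. Of 91 further ribosome biogenesis genes, all tested, 32 fell and 3 rose in MA9 on the TMM scale (median -0.14; with total counts 87 rose and none fell, median 1.29 against 1.43 over all genes), and 46 rose and 1 fell in WT (median 0.44; 64 and none with total counts). By list and on the TMM scale, MA9 had 4 of 14 RNA polymerase I genes, 3 of 10 snoRNP assembly genes, 8 of 31 small subunit processome genes and 17 of 36 large subunit assembly genes that fell, with 1, 1, 1 and 0 that rose. In WT 6, 5, 15 and 20 of the same lists rose, and Znrd1 of the polymerase list, a polymerase I subunit gene, fell on the TMM scale, a call lost with total counts. Ubtf, the factor that opens rRNA genes for transcription, averaged 110.1 ± 2.02 CPM in MA9 sPrdm16 and 192 ± 10.9 CPM in MA9 mock (log2 fold change -0.80, SE 0.06, edgeR adjusted p = 2.5e-05), and 115 ± 5.06 CPM in WT sPrdm16 and 86.1 ± 4.25 CPM in WT mock (SD, n = 3 each; log2 fold change 0.42, SE 0.09, edgeR adjusted p = 0.0033). Pelp1, part of a complex that matures the large subunit, averaged 35.3 ± 1.87 CPM in MA9 sPrdm16 and 95.8 ± 14.1 CPM in MA9 mock (SD, n = 3 each; log2 fold change -1.44, SE 0.10, edgeR adjusted p = 2.0e-05). The snoRNP assembly factor Znhit6 averaged 13.8 ± 0.733 CPM in MA9 sPrdm16 and 28.5 ± 0.551 CPM in MA9 mock (SD, n = 3 each; log2 fold change -1.05, SE 0.09, edgeR adjusted p = 5.8e-05). With total counts the MA9 values of Ubtf, Pelp1 and Znhit6 were 0.63, 0.02 and 0.36 (log2), and none of the 3 passed. Tcof1, a nucleolar partner of polymerase I, rose in WT by 1.49 (SE 0.14), and the helicase Ruvbl2, which loads snoRNP proteins, rose in both genotypes, by 0.48 in MA9 and 1.43 in WT.

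Other lists concern Myc itself. Among the partners and antagonists of Myc 4 of 11 tested rose and none fell in MA9 (11 rose with total counts). In WT 2 of 12 rose and 2 fell, near the shares over all genes tested, 17.5% that rose and 16.6% that fell. In MA9 17.1% of all genes tested rose and 17.5% fell on the TMM scale. The antagonist Mxd1, which competes with Myc for Max, averaged 66.2 ± 2.94 CPM in MA9 sPrdm16 and 50.7 ± 3.22 CPM in MA9 mock (log2 fold change 0.38, SE 0.08, edgeR adjusted p = 0.0038). In WT it averaged 70.6 ± 7.51 CPM with sPrdm16 and 217 ± 4.72 CPM with mock (SD, n = 3 each; log2 fold change -1.62, SE 0.10, edgeR adjusted p = 1.8e-08), and its effects differed by 2.08 (SE 0.13, edgeR adjusted p = 5.0e-09). Mxi1, another such antagonist, averaged 76.8 ± 3.73 CPM in MA9 sPrdm16 and 42.7 ± 3.27 CPM in MA9 mock (log2 fold change 0.85, SE 0.08, edgeR adjusted p = 6.5e-05), and 41.0 ± 6.42 CPM in WT sPrdm16 and 61.0 ± 4.78 CPM in WT mock (SD, n = 3 each; log2 fold change -0.57, SE 0.14, edgeR adjusted p = 0.005). Both thus rose in MA9 and fell in WT, on either scale. Mycn, a relative of Myc, averaged 17.8 ± 0.197 CPM in WT sPrdm16 and 6.26 ± 1.55 CPM in WT mock (SD, n = 3 each; log2 fold change 1.51, SE 0.23, edgeR adjusted p = 1.9e-04) and was too low for the test in MA9. Of 14 Myc targets outside ribosome biogenesis 3 rose and 4 fell in MA9 on the TMM scale (all 14 rose with total counts), and 10 rose and 1 fell in WT. Pa2g4, a growth regulator, and the polyamine enzyme Odc1 fell in MA9 on the TMM scale (log2 fold changes -0.43 and -0.29; both rose with total counts) and rose in WT, by 1.07 and 0.76, while Ldha and Cdk4 rose in both.

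**Figure D4:**
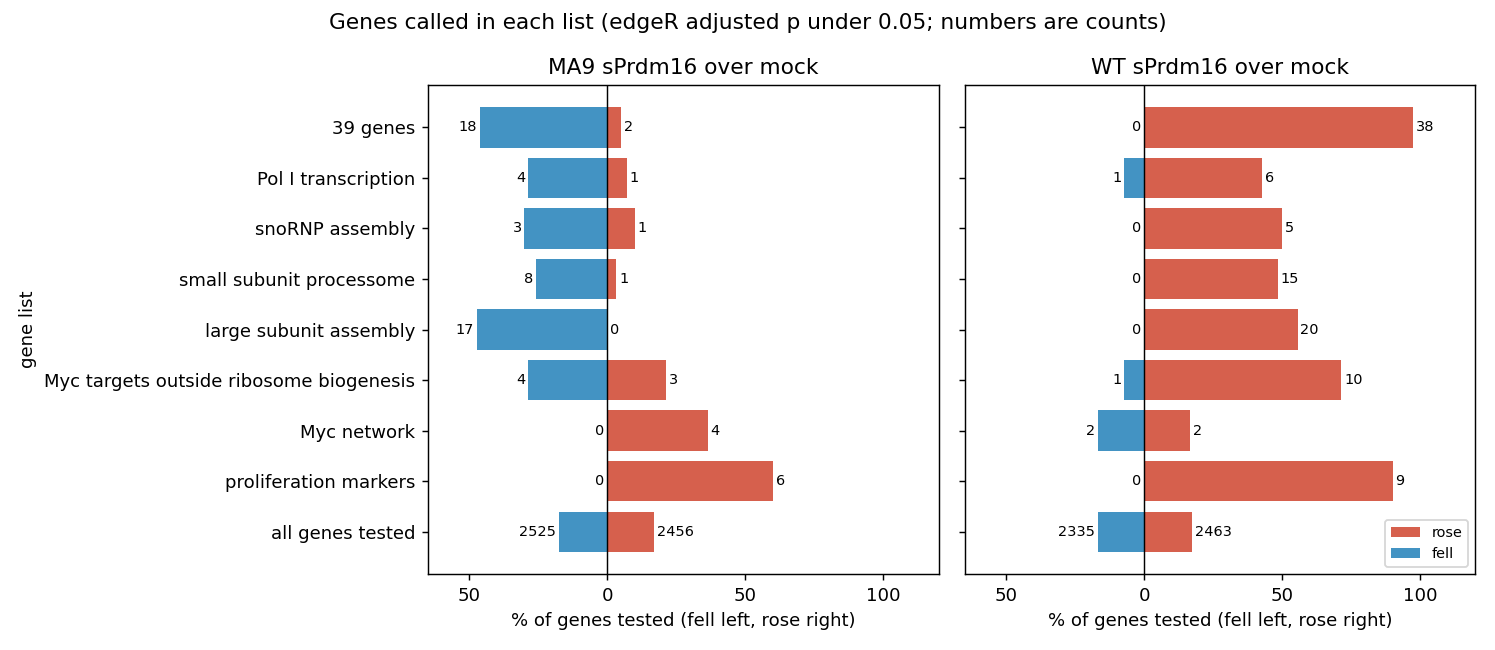
Percent of the tested genes of each list that fell (bars to the left) and rose (bars to the right) with sPrdm16, in MA9 (left panel) and WT (right panel), with the counts beside the bars. In MA9 18 of the 39 genes and 17 of 36 large subunit genes fell on the TMM scale (with total counts 37 of the 39 rose), while in WT 38 and 20 rose.

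Other changes ran beside these. Summed levels of marker lists are on the scale of all 12 libraries, unlike the levels of single genes above, which are mostly scaled within a genotype. Over all genes tested, on the TMM scale, 17.1% rose and 17.5% fell in MA9, and 17.5% rose and 16.6% fell in WT. Of 10 proliferation markers 6 rose and none fell in MA9 (10 with total counts), with summed levels of 3330 to 3528 CPM in MA9 sPrdm16 and 2569.55 to 2843 CPM in MA9 mock. In WT 9 of the 10 rose, with 949 to 1019.5 CPM in WT sPrdm16 and 526 to 569.8 CPM in WT mock. Of 8 neutrophil markers 7 fell in WT, at 4027 to 4435 CPM summed in WT sPrdm16 and 20860.1 to 25846 CPM in WT mock. All 8 mast cell and basophil markers fell in WT, at 379 to 408 CPM in WT sPrdm16 and 4119 to 4542 CPM in WT mock, and Mcpt4 was at 0 in all 3 WT sPrdm16 libraries. In MA9 6 of 7 monocyte markers tested fell and 1 rose (4 and 1 with total counts), with 399.7 to 422 CPM in MA9 sPrdm16 and 348 to 503 CPM in MA9 mock. Of the MA9 mast cell and basophil markers Cpa3, Mcpt4, Fcer1a, Prss34 and Tpsb2 were at 0 in both MA9 groups. Of the other marker lists, 2 of 8 neutrophil markers rose and 4 fell in MA9 (3 and 2 with total counts), 1 of 8 monocyte markers rose and 4 fell in WT, and 3 of 4 eosinophil markers tested fell in each genotype. None of the 2 mast cell and basophil markers tested in MA9 passed (both rose with total counts), nor did the 1 lymphoid and erythroid marker tested there (it rose with total counts), while in WT 2 of 5 of that list rose and 1 fell. In bulk RNA fewer cells of a type and less RNA per cell cannot be told apart, and the part of these changes in the levels of the 39 genes was not tested.

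Of the 39 genes 8 hold annotated snoRNA genes within their span, 23 in all, on the host's strand. These hosts are Ncl, Nop56, Nop58, Dkc1, Wdr43, Gnl3, Tsr1 and Ppan. The 23 snoRNA genes together held 4781 counts in the MA9 sPrdm16 libraries, 15794 in the MA9 mock libraries and 19 over all 6 WT libraries. In MA9 10 of them were tested and 8 fell, with a median of -3.62 (7 and -2.11 with total counts). Over all genes tested 17.5% fell in MA9 on the TMM scale. All annotated genes of the small nucleolar and small Cajal body RNA classes held 24564 to 49411 counts per library in MA9 sPrdm16. They held 96038 to 108138 in MA9 mock, so lower counts were not particular to the 23. Snord82, in Ncl, averaged 10.1 ± 1.36 CPM in MA9 sPrdm16 and 69.5 ± 16.0 CPM in MA9 mock (SD, n = 3 each). In MA9 the 8 hosts had a median of -0.31, with 6 that fell, and the 31 other members a median of -0.22, with 12 that fell and 2 that rose, all on the TMM scale. Fbl and Rrp12, with the lowest MA9 log2 fold changes of the 39 (-0.87 and -0.78), hold no annotated snoRNA gene. Ncl, the next lowest at -0.77, holds 3. The part of snoRNA reads in the values of the hosts was not tested. Of the 23 snoRNA genes 12 touch an annotated exon of their host, in 5 hosts, and reads of host and snoRNA cannot be told apart there.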

How the data were processed

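Per the labels, RNA came off RNeasy columns and sequencing libraries were built with Nextera XT. The authors deposited 1 table per genotype of expected counts (estimated counts that need not be whole) for 55487 genes, unscaled; per the submitters' processing notes the tool was DRAGEN, with no version, and the build mm10. The sources used here give no strand use, cDNA synthesis or rRNA removal. Between 5.19% and 10.2% of a library's values were not whole, and all were rounded. Nuclear protein-coding counts were 3844571 to 28169222 per library, lowest in MA9 mock. No column was left out.

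Genes were tested with edgeR 4.0.16 (R 4.3.3): TMM scaling, filterByExpr with a minimum count of 10, robust quasi-likelihood F tests, Benjamini-Hochberg adjustment over all genes tested and a threshold of 0.05. MA9 and WT were fitted on their own 6 libraries and the interaction on all 12. SEs come from the F statistic. Code was tested on simulated data in 5 seeded draws, which gave no call of the wrong sign. Recovery varied between draws and was lowest for the interaction. Apart from the changed genes, all simulated libraries of a draw shared 1 profile. The draws thus held no shift of RNA classes like that between the MA9 groups, and cannot speak to signs under such a shift. The pass rule, at first a minimum recovery, was changed to sign, bias and false calls after 1 draw missed it. Floors of 3 counts cover counting error alone. Each genotype has its own table, so levels were not tested between genotypes. Members, lists and tests were chosen with earlier results of these data known. Genes named in full were Myc, the 12 members with the smallest p in MA9 and the 6 in WT and in the interaction. Of 12 further lists (165 symbols, all matched, 3 under newer names) up to 4 members with the smallest p in MA9 and 2 in WT could be named. Alternatives were RLE scaling, total counts, nuclear protein-coding genes alone, no filter, 5 CPM in 3 libraries, DESeq2 1.42.0, limma-voom (limma 3.58.1), 1 fit over all 12 libraries, thinning to an equal nuclear protein-coding total, a replicate block and leaving out each library. Promoter windows came from RefSeq (GRCm38.p6).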

Additional observations from a re-analysis of the deposited data

Results flagged for a closer look

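The sPrdm16 effect differed between MA9 and WT in 34 of the 39 genes, by the interaction test of edgeR at an adjusted p under 0.05, and each difference is given here as log2, MA9 minus WT. Myc differed by -1.40. Of the genes of rRNA transcription, Polr1b differed by -1.35, Ncl by -1.27, Nolc1 by -1.18, Mybbp1a by -1.05, Ddx21 by -0.83 and Polr1a by -0.76. Of the box C/D genes, Fbl differed by -1.67, Nop56 by -1.63, Rrp9 by -1.37 and Nop58 by -0.91. Of the box H/ACA core, Dkc1 differed by -1.16. Of the small subunit factors, Rrp12 differed by -1.36, Wdr43 by -1.27, Tsr1 by -1.27, Noc4l by -0.77, Wdr75 by -0.68 and Nop14 by -0.65. Of the large subunit factors, Nle1 differed by -2.17, Grwd1 by -1.71, Ppan by -1.33, Nop2 by -1.32, Wdr12 by -1.31, Noc2l by -1.28, Bop1 by -1.23, Pes1 by -0.99, Nip7 by -0.97, Gnl3 by -0.95 and Wdr74 by -0.93. Npm1 and Rrs1 differed by -0.89 each, Nop16 by -0.81, Ddx18 by -0.69 and Mrto4 by -0.54. With total counts none of the 34 calls held. Under the other alternatives 31 of the 34 held throughout, and Noc4l, Mrto4 and Wdr75 lost theirs in at least 1.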

How the results depend on the processing

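The call counts and the sign of the MA9 values depended on total counts as the scale, which moved the median of all genes by 1.41 (log2) in MA9, 1.14 in the difference of effects and 0.17 in WT. With it, 37 members rose and 0 fell in MA9, with a median of 1.16, and 39 rose in WT, with a median of 1.02. In the difference of effects 2 were higher and 0 lower, with a median of 0.17. The MA9 log2 fold changes that turned positive were Fbl 0.56, Rrp12 and Ncl 0.66, Nop56 0.74, Nle1 and Npm1 0.93, Noc2l 0.94, Rrp9 0.95, Grwd1 0.99, Rrs1 1.02, Gnl3 1.04, Ddx18 1.07, Wdr43 and Nop14 1.08, Pes1 and Tsr1 1.10, Wdr74 1.12, Ddx21 1.13, Heatr1 1.15, Nip7 1.16, Bop1, Nop58 and Ppan 1.20, Wdr12 1.22, Nop2 1.24, Wdr75 1.27, Nop10 1.29, Ltv1 1.30, Dkc1 1.34, Mrto4 1.35, Nop16 1.36 and Polr1a 1.40. The differences that turned positive were Nolc1 0.011, Dkc1 0.012, Mybbp1a 0.13, Pes1 and Gnl3 0.17, Nip7 and Wdr74 0.23, Rrs1 and Nop58 0.25, Npm1 0.27, Nop16 and Noc4l 0.34, Ddx21 0.35, Polr1a 0.38, Ddx18 and Wdr75 0.50, Nop14 0.51, Mrto4 0.64, Ltv1 0.74 and Nhp2 1.01. Over all genes the share of calls that rose went to 95.0% with total counts, against 49.3% with TMM, in MA9 (11489 rose and 607 fell), to 71.0%, against 51.3%, in WT (3668 rose and 1501 fell), and to 96.0%, against 57.1%, in the difference (8176 and 342). It was 59.5% in MA9 with 1 fit over all 12 libraries.

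Other settings moved counts or medians without turning the sign of a median. In MA9, no filter gave 4 members that rose and a median of -0.18, 1 fit over all 12 libraries gave 8 that fell (beside 1906 of 16194 genes) and a median of -0.17, protein-coding genes alone a median of -0.31 and the 5 CPM filter -0.32. In the difference of effects the median was -0.90 with no filter and -1.15 after thinning to an equal protein-coding total. Leaving out each library gave 1 to 4 members that rose and 10 to 20 that fell in MA9 (median -0.31 to -0.25), 34 to 38 that rose in WT (median 0.80 to 0.90) and 31 to 35 lower in the difference (median -1.11 to -0.94). The cause was not tested. With no filter 3442 of all genes rose and 2772 fell in MA9. Over all genes, leaving out an MA9 sPrdm16 library gave 1533 to 1600 that rose and 1773 to 1834 that fell. Apart from total counts, 9 of 20 MA9 calls held under every alternative (Ncl, Fbl, Nop56, Npm1, Rrp12, Nop14, Nhp2, Rrs1 and Noc2l), and 33 of 38 WT calls held under all 16 alternatives.

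Same-numbered libraries correlated at -0.09 to 0.07 in their deviations from the group means. With 3 libraries per group this cannot decide whether replicate numbers pair the libraries. With the replicate number as a block 17 members fell and 2 rose in MA9 (Nop58 lost its call), 38 rose in WT and 34 were lower in the difference. The depth of nuclear protein-coding counts was lowest in MA9 mock, with 3844571 in its smallest library. Total counts were lowest in WT sPrdm16, with 17217123 in its smallest library.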

Other observations

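Beyond the 39 genes, the test of the difference of effects gave values for the companion lists, as log2, MA9 minus WT, on the TMM scale. Over all genes tested 12% were lower and 16.0% higher. Lower effects in MA9 were not particular to these pathways on that scale. Of the 10 proliferation markers 8 were lower and 1 higher (median -0.81). With total counts 3 of these markers were higher and none lower (median 0.32). Of the 91 further ribosome biogenesis genes 49 were lower and 2 higher (median -0.61), but 34 were higher and none lower with total counts. Of those named above, Pelp1 stood at -1.84 (SE 0.18, edgeR adjusted p = 5.9e-07), and Tcof1 at -1.35 (SE 0.17, edgeR adjusted p = 1.2e-05). Of the 14 Myc targets outside ribosome biogenesis 8 were lower and 1 higher (with total counts 7 higher and none lower), with the folate enzyme Shmt2 at -1.62, the growth regulator Pa2g4 at -1.41 and the spermidine synthase Srm at -0.94. Shmt2 averaged 406 ± 19.1 CPM in WT sPrdm16 and 147 ± 23.8 CPM in WT mock, and 81.4 ± 1.46 CPM in MA9 sPrdm16 and 95.7 ± 7.20 CPM in MA9 mock (SD, n = 3 each). The partners and antagonists of Myc had 4 of 12 higher and 1 lower (10 and 1 with total counts). Among them Mlx, a partner of the Mxd proteins, averaged 29.5 ± 0.923 CPM in MA9 sPrdm16 and 14.3 ± 1.41 CPM in MA9 mock, and 56.1 ± 2.56 CPM in WT sPrdm16 and 57.2 ± 5.48 CPM in WT mock (SD, n = 3 each), a difference of 1.15 (SE 0.17). Max, the shared partner itself, did not pass in either genotype on the TMM scale, though it rose in both with total counts.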
